A study of Mus musculus with 12 samples.

Results

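Igfbp4, Dntt, Dapl1, Ampd1, Adamts14, Drc1, Atp1b1, Vipr1 and Actn1 are 9 of the 55487 genes in a table of CD4+ T cell transcripts from mice. They were selected on the measured values of this table, by their strong loss of RNA in effector relative to naive cells. Their effector and naive levels are therefore given as a description, with no test. The rule does not use the comparison of Rinl-KO with wild-type (WT) cells, which was tested, though earlier results of it were known.

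RNA was sequenced from CD4+ T cells of spleen and peripheral lymph nodes, sorted by flow cytometry into a CD62L- CD44hi effector fraction and a CD62L+ CD44lo naive fraction. The 4 groups were effector cells of Rinl-KO mice, effector cells of WT mice, naive cells of Rinl-KO mice and naive cells of WT mice, with 3 libraries each. Rinl encodes a nucleotide exchange factor for endosomal RAB5 GTPases, and the stated purpose was to learn its function in CD4+ T cells. The sources used here do not give the strain, sex or age of the mice, the allele, or the cells in which Rinl was deleted. Whether the 3 libraries of each group stem from different mice is not stated, so p-values measure the spread between these libraries, which may be technical.

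Total counts per library ran from 11606251 to 24320247, and values are CPM, counts scaled to library size with TMM factors, unless FPKM, which also divides by gene length, is named. Rinl itself stood at 45.8, 47.5 and 49.4 CPM in KO effector cells, against 437.0, 450.6 and 462.5 CPM in WT effector cells. In KO naive cells Rinl stood at 32.6, 32.2 and 34.4 CPM, against 298.4, 298.8 and 285.5 CPM in WT naive cells, so every library carried the Rinl level its genotype label calls for. Cd44, a marker of the sort, followed the labels too. It lay at 221.3 to 238.9 CPM in KO effector, 254.5 to 259.1 in WT effector and 17.1 to 21.1 in the naive libraries of both genotypes. Cd4 lay at 934.6 to 1060 CPM in all 12 libraries.

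A naive T cell is a mature T cell that has left the thymus and not yet met its antigen. It recirculates between blood and lymph nodes, and on activation it gives up part of its naive programme as it becomes an effector or memory cell. The 9 genes are not one pathway. They encode a binding protein for insulin-like growth factors (Igfbp4), the polymerase that adds untemplated nucleotides to antigen receptor gene joints (Dntt, terminal deoxynucleotidyl transferase), a small relative of death-associated protein (Dapl1) and a deaminase that turns AMP into IMP (Ampd1). The others are a secreted metalloproteinase that trims procollagen (Adamts14), a subunit of the nexin-dynein regulatory complex of motile cilia (Drc1), a beta subunit of the sodium-potassium pump (Atp1b1), a receptor for vasoactive intestinal peptide (Vipr1, VPAC1) and an actin crosslinker (Actn1, alpha-actinin 1).

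The genes lie on 9 different chromosomes. In the mm10 coordinates of the table, Igfbp4 spans chr11:99041244-99054392, Dntt chr19:41029275-41059525, Dapl1 chr2:59484653-59505020, Ampd1 chr3:103074014-103099720, Drc1 chr5:30281388-30366695 and Vipr1 chr9:121642716-121672954, all on the plus strand. Adamts14 spans chr10:61197112-61273438, Atp1b1 chr1:164437109-164458355 and Actn1 chr12:80167547-80260371, all on the minus strand. All are protein-coding.

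The stretch of 250 bases before the RefSeq transcription start (GRCm38.p6) was found for 8 of the 9 genes, Ampd1 being the one with no entry. Of these, 5 are shown because they differ widely in base composition and hold every kind of motif match described next. Each is written 5′ to 3′ on the gene's own strand, with capitals marking a match to 1 of 6 motifs.
Igfbp4, chr11:99040994-99041243, plus strand: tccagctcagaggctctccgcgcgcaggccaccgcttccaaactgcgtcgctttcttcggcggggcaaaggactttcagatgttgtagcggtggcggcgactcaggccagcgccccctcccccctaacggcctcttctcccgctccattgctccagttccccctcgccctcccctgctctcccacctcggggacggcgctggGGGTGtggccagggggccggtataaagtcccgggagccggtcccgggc
Dntt, chr19:41029025-41029274, plus strand: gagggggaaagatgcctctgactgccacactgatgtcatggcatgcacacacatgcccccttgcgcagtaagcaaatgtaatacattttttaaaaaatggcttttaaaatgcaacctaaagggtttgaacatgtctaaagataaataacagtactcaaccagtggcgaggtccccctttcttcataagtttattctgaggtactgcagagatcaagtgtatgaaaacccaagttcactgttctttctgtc
Dapl1, chr2:59484403-59484652, plus strand: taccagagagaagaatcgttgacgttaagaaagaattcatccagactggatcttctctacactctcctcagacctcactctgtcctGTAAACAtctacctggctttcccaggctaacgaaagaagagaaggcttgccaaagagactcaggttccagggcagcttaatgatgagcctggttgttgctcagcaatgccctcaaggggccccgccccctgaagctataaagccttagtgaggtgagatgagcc
Drc1, chr5:30281143-30281392, plus strand: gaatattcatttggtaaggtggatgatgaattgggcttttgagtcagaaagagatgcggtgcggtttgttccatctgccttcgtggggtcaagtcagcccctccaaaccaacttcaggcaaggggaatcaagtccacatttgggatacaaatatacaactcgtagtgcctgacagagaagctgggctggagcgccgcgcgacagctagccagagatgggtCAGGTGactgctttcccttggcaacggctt
Atp1b1, chr1:164458356-164458605, minus strand: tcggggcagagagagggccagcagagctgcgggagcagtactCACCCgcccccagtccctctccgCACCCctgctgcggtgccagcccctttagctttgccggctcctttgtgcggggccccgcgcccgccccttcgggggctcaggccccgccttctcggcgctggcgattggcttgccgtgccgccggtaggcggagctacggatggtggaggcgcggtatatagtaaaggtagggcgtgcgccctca

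These upstream stretches did not share one composition. The G and C content was 41.6% for Dntt, 50.0% for Dapl1 and 51.6% for Drc1, against 68.4% for Actn1, 69.2% for Igfbp4, 70.4% for Atp1b1, 72.8% for Vipr1 and 76.4% for Adamts14. The CG dinucleotide occurred 2 times upstream of Dntt and 35 times upstream of Adamts14. The median G and C content of the 8 was 68.8%, where the median of all 32851 promoters in the table was 52.4% with quartiles of 45.2% and 61.2%.

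The 6 motifs searched on both strands are core letters of factors known in naive and effector T cells. The FOXO letters GTAAACA were found once, upstream of Dapl1 at position -164 from the start, and 3.17% of all promoters held them. The E protein letters CAGGTG were found once, upstream of Drc1 at -30, and 17.2% of all promoters held them. The KLF and SP letters CACCC were found upstream of 3 of the 8 genes, at -208 and -185 for Atp1b1, at -166 for Adamts14 and, on the other strand, at -48 for Igfbp4, and 52.0% of all promoters held them. The TCF and LEF letters CTTTGA, the RUNX letters TGTGGT and the ETS letters AGGAAG were in none of the 8 windows, against 13.8%, 14.0% and 29.5% of all promoters. None of the matches found overlapped another.

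Igfbp4 binds insulin-like growth factors outside the cell and limits their access to the receptor. Its RNA stood at 9.22, 7.03 and 9.80 CPM in KO effector cells and 14.4, 10.8 and 9.01 CPM in WT effector cells. It stood at 753, 788 and 698 CPM in KO naive cells and 781, 695 and 779 CPM in WT naive cells. Every naive library was above every effector library, and libraries of the 2 genotypes overlapped within each fraction. The effector mean was 1.16% of the naive mean in KO cells and 1.51% in WT cells, a log2 difference of -6.46 ± 0.14 and -6.04 ± 0.13 (effector over naive, SE). In these bulk samples, fewer cells that carry a transcript and less of it per cell cannot be told apart, here or for any gene below.

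Dntt is known as an enzyme of immature lymphocytes, where it diversifies receptor joints during V(D)J recombination. It stood at 0.174, 0.144 and 0 CPM in KO effector cells and 0.123, 0.149 and 0 CPM in WT effector cells. The levels were 10.8, 10.2 and 9.89 CPM in KO naive cells and 11.8, 13.6 and 9.62 CPM in WT naive cells. These effector values rest on 6 counts over the 3 KO libraries and 4 over the 3 WT libraries, against 683 in KO naive and 593 in WT naive libraries. A count of 0 allows up to 3 counts in a library, or 0.251 CPM in the KO effector library at 0 and 0.178 CPM in the WT effector library at 0. From the summed counts, the effector level was 1.16% of the naive level in KO cells (95% exact interval 0.426 to 2.55%) and 0.720% in WT cells (0.196 to 1.85%), intervals that cover counting error only.

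The recombinase genes that work with Dntt in immature cells were not seen beside it. Rag1 and Rag2 had no count in any of the 12 libraries, which allows up to 0.0141 CPM over all libraries together. Ptcra, which encodes the pre-T cell receptor alpha chain, had no count in effector cells of either genotype, 1 count in KO naive and 1 count in WT naive cells. The summed level of the 7 immature thymocyte markers was 8.93 to 9.80 CPM in KO effector, 6.94 to 7.83 in WT effector, 21.9 to 23.3 in KO naive and 21.2 to 22.3 in WT naive libraries.

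Dapl1 stood at 3.83, 2.26 and 3.52 CPM in KO effector cells and 3.50, 3.96 and 4.57 CPM in WT effector cells. In naive cells it stood at 88.0, 82.6 and 77.3 CPM in KO and at 84.5, 87.4 and 99.0 CPM in WT libraries. All 6 naive libraries were far above all 6 effector libraries, and the effector mean was 3.88% of the naive mean in KO cells and 4.44% in WT cells.

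Ampd1, the AMP deaminase best known from skeletal muscle, stood at 0.638, 0.770 and 1.09 CPM in KO effector cells and 0.614, 0.597 and 1.19 CPM in WT effector cells. It stood at 27.3, 28.6 and 28.3 CPM in KO naive cells and 30.0, 29.7 and 28.5 CPM in WT naive cells. The naive libraries of both genotypes overlapped, and the effector mean was 2.97% of the naive mean in KO cells and 2.72% in WT cells. An intronic transcript annotated inside Ampd1, Gm43063, had 261 counts over the 12 libraries against 3403 for Ampd1, and shared no exon base with it.

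Adamts14 stood at 1.04, 0.867 and 0.670 CPM in KO effector cells and 0.491, 0.970 and 0.415 CPM in WT effector cells. It stood at 18.6, 18.0 and 19.1 CPM in KO naive cells and 20.1, 18.7 and 19.9 CPM in WT naive cells. The effector mean was 4.63% of the naive mean in KO cells and 3.20% in WT cells, with overlapping libraries between the genotypes in both fractions.

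Drc1 stood at 0.116, 0.144 and 0.0838 CPM in KO effector cells and 0.246, 0.373 and 0.119 CPM in WT effector cells, from 6 and 11 counts. It stood at 10.7, 9.44 and 11.9 CPM in KO naive cells and 8.26, 6.23 and 7.30 CPM in WT naive cells. The 3 KO naive libraries were above the 3 WT naive libraries. The effector share from summed counts was 1.13% in KO cells (0.414 to 2.48%) and 3.25% in WT cells (1.61 to 5.89%).

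The 3 remaining genes kept more RNA in effector cells. Atp1b1 stood at 13.1, 15.9 and 16.2 CPM in KO effector cells and 18.7, 13.5 and 13.8 CPM in WT effector cells, against 109, 114 and 114 CPM in KO naive and 140, 138 and 141 CPM in WT naive cells. Its effector mean was 13.4% of the naive mean in KO cells and 11.0% in WT cells. Unlike in the effector fraction, all KO naive libraries were below all WT naive libraries.

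Vipr1 stood at 31.1, 30.1 and 33.3 CPM in KO effector cells and 43.9, 54.2 and 47.9 CPM in WT effector cells, against 304, 304 and 291 CPM in KO naive and 312, 317 and 306 CPM in WT naive cells. The KO libraries were below the WT libraries in both fractions, by a wide margin in effector cells and a narrow one in naive cells. The effector mean was 10.5% of the naive mean in KO cells and 15.6% in WT cells.

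Actn1 stood at 159, 141 and 184 CPM in KO effector cells and 168, 156 and 171 CPM in WT effector cells, against 686, 666 and 656 CPM in KO naive and 654, 702 and 665 CPM in WT naive cells. It was the least restricted of the 9, with an effector mean of 24.1% of the naive mean in KO cells and 24.5% in WT cells. The counts overlap slightly with 2 antisense transcripts, Gm47766 and Gm47767, which had 51 and 7 counts over the 12 libraries against 93469 for Actn1.

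**Figure D1:**
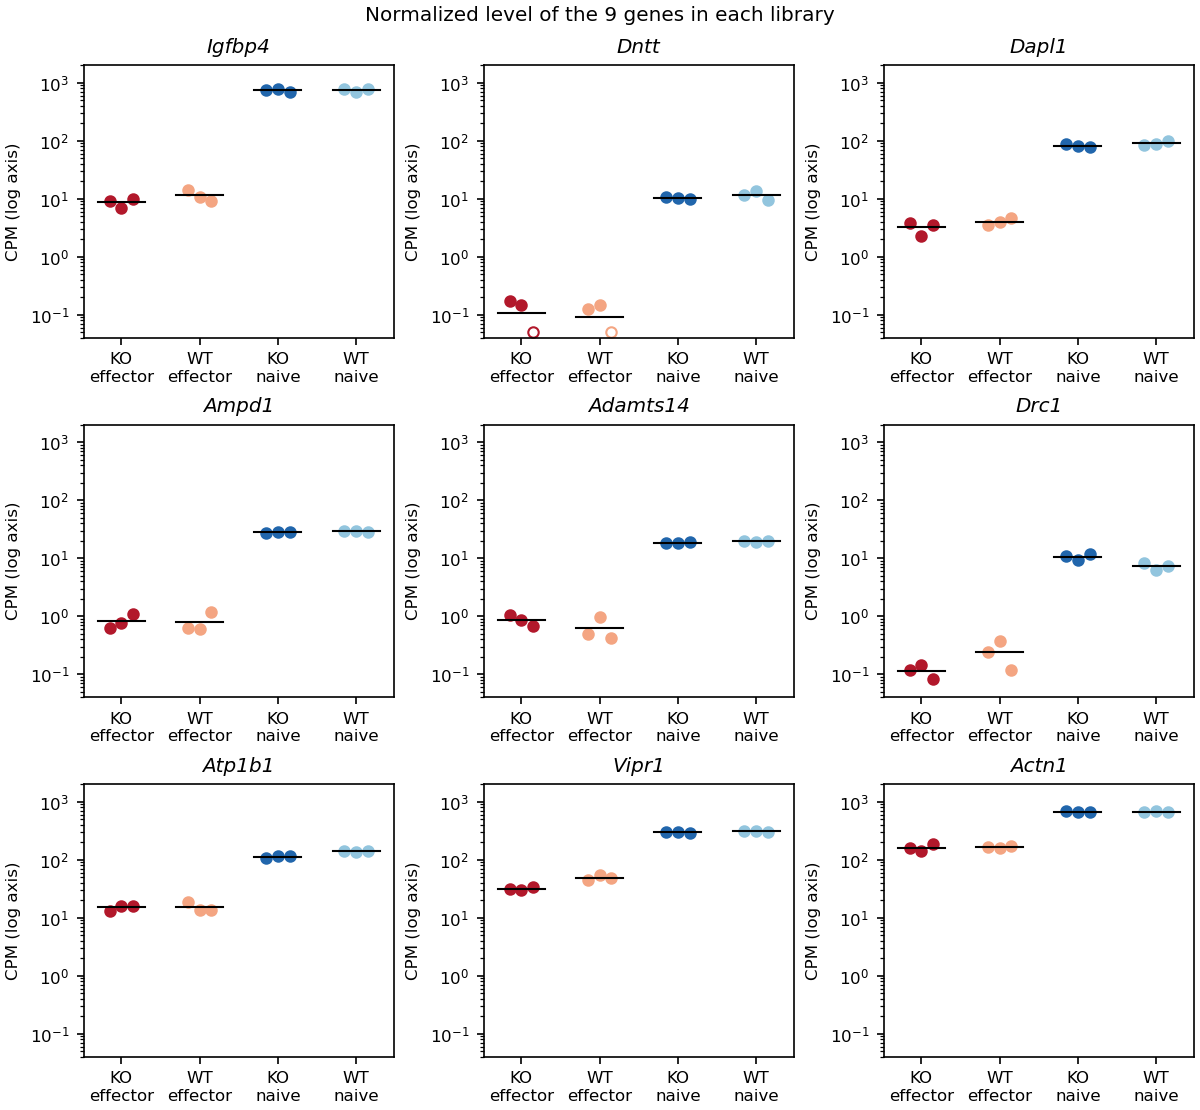
CPM on a log axis for each of the 9 genes in the 12 libraries (points) by group, with lines at the group means and KO effector and WT effector left of KO naive and WT naive; open circles on the axis floor are libraries with no count. Every naive library lies above every effector library for all 9 genes, and Actn1 has the narrowest gap.

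Among all 15905 tested genes, 26.8% fell in effector relative to naive cells of KO mice and 25.9% in those of WT mice (edgeR quasi-likelihood test, Benjamini-Hochberg adjusted p under 0.05). Effector libraries were all below naive libraries for 29.9% of the tested genes in KO and 29.1% in WT mice. All 9 genes passed the filter on low counts, and all had negative log2 differences and no overlap, which is what they were selected on. Ordered by the size of the fall, Dntt was number 8 of the tested genes in KO and number 1 in WT cells, and Igfbp4 number 6 in KO and 3 in WT cells. Drc1 was number 7 in KO and 9 in WT cells, Ampd1 number 10 in KO and 7 in WT, Dapl1 number 13 in KO and 15 in WT, and Adamts14 number 17 in KO and 8 in WT cells. Vipr1 was number 51 in KO and 87 in WT cells, Atp1b1 number 73 in KO and 50 in WT, and Actn1 number 163 in KO and 167 in WT cells.

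The effector share of the naive level had a median over the 9 genes of 3.88% in KO and 3.39% in WT cells. For 14 naive-state genes reported here, the median was 48.8% in KO and 45.1% in WT cells. The 9 were selected for their loss, so a median below that of the 14 was nearly fixed in advance. Among the 14, Ccr7, the chemokine receptor that guides naive cells into lymph nodes, had a share of 19.5% in KO and 19.1% in WT cells. Treml2 had 15.8% in KO and 16.9% in WT cells, and Lef1 21.2% in KO and 20.9% in WT cells. All of these were below the Actn1 shares of 24.1% in KO and 24.5% in WT cells. Ccr9, a chemokine receptor of gut homing on the same list, ran the other way with 419% in KO and 635% in WT cells. Among these 14 genes, 11 fell and 3 rose in KO effector cells, and 11 fell and 2 rose in WT effector cells, with a median log2 difference of -1.04 in KO and -1.15 in WT, where the median of all tested genes was 0.01 in both.

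**Figure D2:**
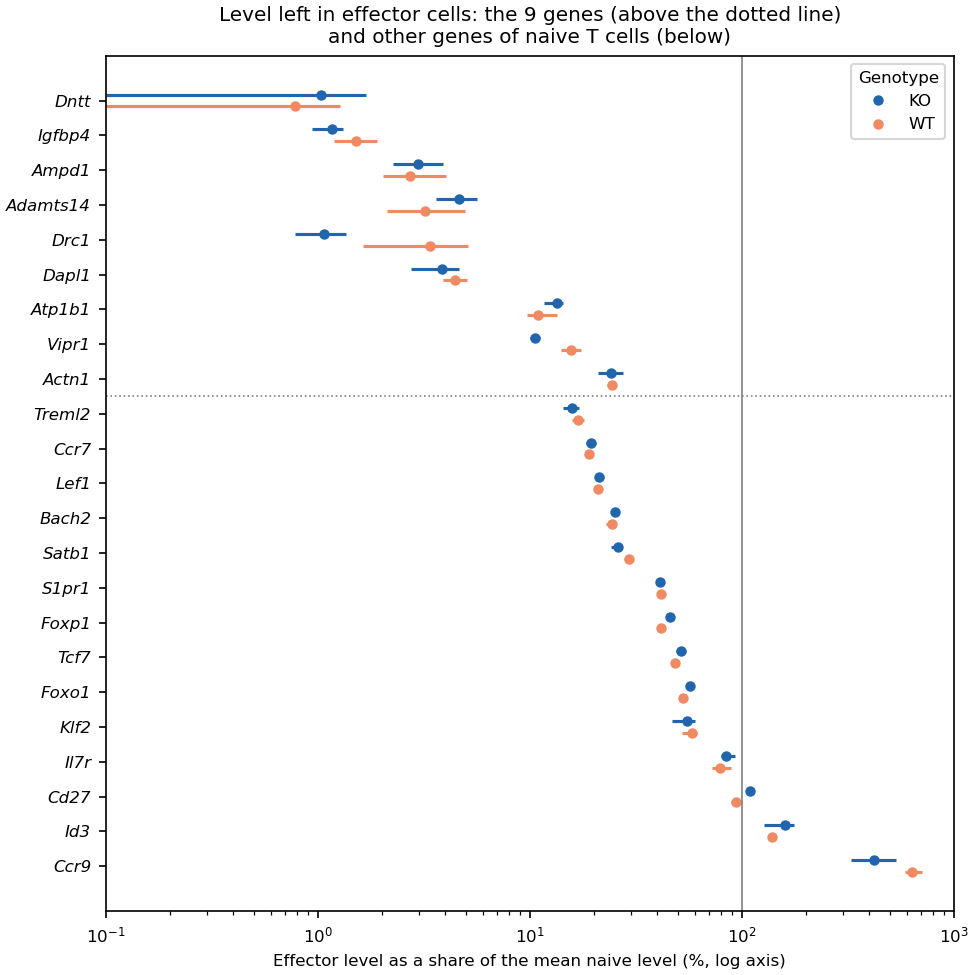
Effector level as a percentage of the naive level on a log axis, for the 9 genes (above the dotted line) and 14 naive-state genes (below it), with the KO value above the WT value; points are means and lines run from the lowest to the highest effector library, reaching the axis edge for Dntt, which had a library with no count in each genotype. The means of Igfbp4, Dntt, Drc1, Ampd1, Dapl1 and Adamts14 lie below those of Atp1b1, Vipr1 and Actn1, which run from 10.5% to 24.5%.

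Levels can be set between genes only per length. In KO naive cells the order by mean FPKM was Igfbp4 at 189.6, Actn1 at 175.5, Dapl1 at 143.7, Vipr1 at 60.9, Atp1b1 at 43.4, Ampd1 at 9.55, Dntt at 4.82, Drc1 at 4.31 and Adamts14 at 3.56. In WT naive cells it was Igfbp4 at 190.0, Actn1 at 175.9, Dapl1 at 156.4, Vipr1 at 63.0, Atp1b1 at 53.7, Ampd1 at 9.97, Dntt at 5.43, Adamts14 at 3.74 and Drc1 at 2.92. Neighbours whose libraries overlapped were Igfbp4 and Actn1 in both genotypes, Dntt and Drc1 in KO, and Actn1 and Dapl1 in WT cells.

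The effector order was different. Actn1 led with 42.3 FPKM in KO effector and 43.1 FPKM in WT effector cells, far above the rest. Vipr1 followed with 6.40 FPKM in KO effector and 9.86 FPKM in WT effector cells, Dapl1 with 5.56 in KO and 6.95 in WT, Atp1b1 with 5.80 in KO and 5.90 in WT, and Igfbp4 with 2.20 in KO and 2.88 in WT effector cells. Ampd1, Adamts14, Drc1 and Dntt were all below 0.3 FPKM on average in both. Libraries of Atp1b1 and Dapl1 overlapped in both genotypes, as did those of Dntt and Drc1. Vipr1 overlapped both Atp1b1 and Dapl1 in KO, and Adamts14 overlapped Drc1 in WT effector cells. The order within these pairs is therefore not resolved.

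Vipr1 was lower in KO than in WT effector cells. It encodes a G protein-coupled receptor for vasoactive intestinal peptide (VIP) and PACAP, known on resting T cells. It averaged 31.5 ± 1.64 CPM in KO effector cells and 48.7 ± 5.20 CPM in WT effector cells (SD, n = 3 each), a log2 difference of -0.63 ± 0.065 (KO over WT, SE) with an adjusted p of 4.69e-06 by edgeR's quasi-likelihood test. It was the 1 member of 9 to pass in effector cells, where 3.16% of all tested genes passed and 1.72% were lower in KO. The call held in all 20 alternative settings, with log2 differences of -0.70 to -0.55.

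In naive cells Vipr1 averaged 299.6 ± 7.42 CPM in KO and 311 ± 5.60 CPM in WT libraries (SD, n = 3 each), a log2 difference of -0.06 ± 0.051 with an edgeR adjusted p of 0.732. The KO effect differed between the fractions, by -0.57 ± 0.083 on the log2 scale (effector minus naive, SE; edgeR adjusted p 0.00157). Of all tested genes 0.145% passed that test, 0.126% with a negative difference, and Vipr1 was the 1 member of 9 that did. The difference did not pass in the fits on log2(FPKM + 1) and log2(FPKM + 0.1), with limma adjusted p of 0.0780 and 0.0764.

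Genes of other T cell programmes moved in the same libraries. Of all tested genes, 1.72% were lower in KO than in WT effector cells, and 3.16% passed in either direction. The summed level of 15 effector and memory genes was 3584 to 3958 CPM in KO effector and 4270 to 4441 CPM in WT effector libraries, and 5 of them fell, among them Tbx21 and Nkg7. Of 6 natural killer and innate-like T cell genes, 3 fell (Klrb1c, Klrk1 and Zbtb16). The sum of the 6 was 135.2 to 178.4 CPM in KO effector and 208.9 to 219.2 CPM in WT effector libraries. Of the 14 naive-state genes, Satb1, Il7r, S1pr1 and Ccr9 fell and Cd27 rose in KO effector cells, by log2 differences of -0.24, -0.42, -0.24, -0.63 and 0.23. The sum of 12 B cell genes, of which Cd22 fell, was 1121 to 1355 CPM in KO effector and 941.2 to 1116 CPM in WT effector libraries, and that of 8 CD4 T cell genes 5784 to 5979 CPM in KO effector and 5844 to 5985 CPM in WT effector libraries. Their part in the Vipr1 result was not tested.

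For the other 8 genes, KO effector cells showed no difference past the threshold. Igfbp4 averaged 8.68 ± 1.46 CPM in KO effector and 11.4 ± 2.74 CPM in WT effector cells (SD, n = 3 each; log2 -0.42 ± 0.18 SE, edgeR adjusted p 0.279), and Dapl1 3.20 ± 0.828 in KO effector and 4.01 ± 0.534 CPM in WT effector cells (-0.37 ± 0.19, edgeR adjusted p 0.366). The rarest transcripts had wide errors, with a log2 difference of -0.94 ± 0.64 for Drc1, 0.45 ± 0.89 for Dntt, 0.54 ± 0.31 for Adamts14 and -0.02 ± 0.30 for Ampd1. A difference of the size seen for Vipr1 would lie within about 2 SE for these genes and was not detectable at this depth. Atp1b1 and Actn1 differed by -0.04 ± 0.11 and -0.04 ± 0.071.

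In naive cells, Atp1b1 was lower and Drc1 higher in KO than in WT, which made 2 of the 9 genes where 1.18% of all tested genes passed, 0.679% higher and 0.497% lower in KO. Atp1b1, whose product is the pump subunit that brings the catalytic chain to the membrane, averaged 112 ± 3.11 CPM in KO naive and 139.6 ± 1.87 CPM in WT naive cells (SD, n = 3 each). The log2 difference was -0.31 ± 0.067 (SE, edgeR adjusted p 0.0238). Without any 1 of the 6 naive libraries the adjusted p was between 0.0793 and 0.136, and it was 0.288 and 0.324 in the limma fits on FPKM, while the log2 difference stayed between -0.32 and -0.28. The libraries of the genotypes overlapped in effector cells, and the KO effects of the fractions differed by 0.28 ± 0.13 (edgeR adjusted p 0.502).

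Atp1b1 shares 575 of its 3081 exon bases with Nme7 on the opposite strand (GENCODE M21). The sources used here do not give the strand setting of the counting, so reads of that stretch may belong to either gene. Nme7 had 2338 counts over the 12 libraries against 15816 for Atp1b1, and its own log2 difference between KO and WT naive cells was -0.00 ± 0.13.

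Drc1 averaged 10.7 ± 1.22 CPM in KO naive and 7.26 ± 1.01 CPM in WT naive cells (SD, n = 3 each), a log2 difference of 0.55 ± 0.14 (SE, edgeR adjusted p 0.0429). The adjusted p ran from 0.0682 to 0.295 without library 2 or 3 of WT naive or 7, 8 or 9 of KO naive cells. It was 0.0933 in DESeq2 and 0.0796 and 0.319 in the limma fits on FPKM. The difference of the KO effects was -1.49 ± 0.66 (edgeR adjusted p 0.483).

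The other 7 genes showed no difference past the threshold in naive cells. The log2 differences were -0.01 ± 0.092 for Igfbp4, -0.19 ± 0.14 for Dntt, -0.12 ± 0.075 for Dapl1, -0.07 ± 0.082 for Ampd1, -0.08 ± 0.095 for Adamts14 and -0.01 ± 0.066 for Actn1. KO and WT naive libraries did not overlap for 3 genes, Drc1 (higher in KO), Atp1b1 and Vipr1 (lower in KO), where 20.5% of all tested genes did not overlap. In effector cells the groups did not overlap for Vipr1, where the share over all tested genes was 17.9%. The median log2 difference of the 9 genes was -0.07 in naive and -0.04 in effector cells, beside 0.00 for all tested genes in both.

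Markers of other cells were also counted in the naive libraries. Of all tested genes, 0.679% were higher and 0.497% lower in KO than in WT naive cells. The summed level of 11 myeloid genes was 41.4 to 53.8 CPM in KO naive and 28.4 to 39.6 CPM in WT naive libraries. That of 6 natural killer and innate-like T cell genes was 6.92 to 8.84 CPM in KO naive and 6.10 to 7.41 CPM in WT naive libraries. The sum of 12 B cell genes was 570.9 to 629.3 CPM in KO naive and 599.5 to 623.5 CPM in WT naive libraries. The sums do not show how single genes moved. The median log2 difference (KO over WT naive) was 2.10 for the 6 natural killer and innate-like T cell genes. It was 1.21 for the 9 myeloid and 0.78 for the 8 B cell genes tested. None of these genes passed the threshold in naive cells. The 15 effector and memory genes summed to 259.5 to 281.8 CPM in KO naive and 244.5 to 272.7 CPM in WT naive libraries, and 3 of them rose in KO naive cells, S100a6, Ccl5 and Il2rb. Of the 14 naive-state genes, Foxp1, Il7r and S1pr1 fell in KO naive cells. The part of these in the Atp1b1 and Drc1 results was not tested.

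**Figure D3:**
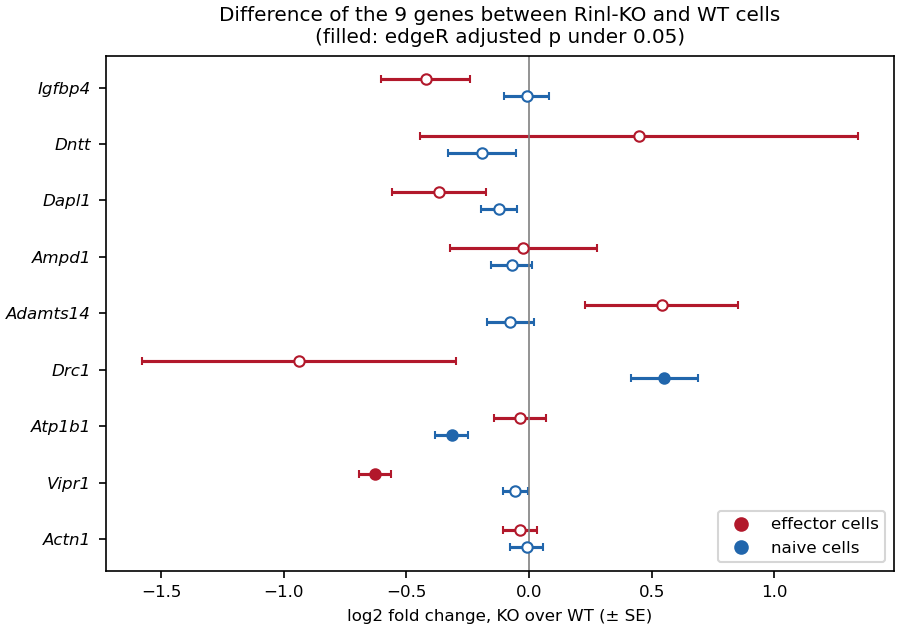
Log2 difference between KO and WT cells (points, with SE bars) for each of the 9 genes in effector cells and in naive cells; filled points passed an edgeR adjusted p of 0.05. Vipr1 at -0.63 in effector cells, Atp1b1 at -0.31 and Drc1 at 0.55 in naive cells are the filled points.

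**Figure D4:**
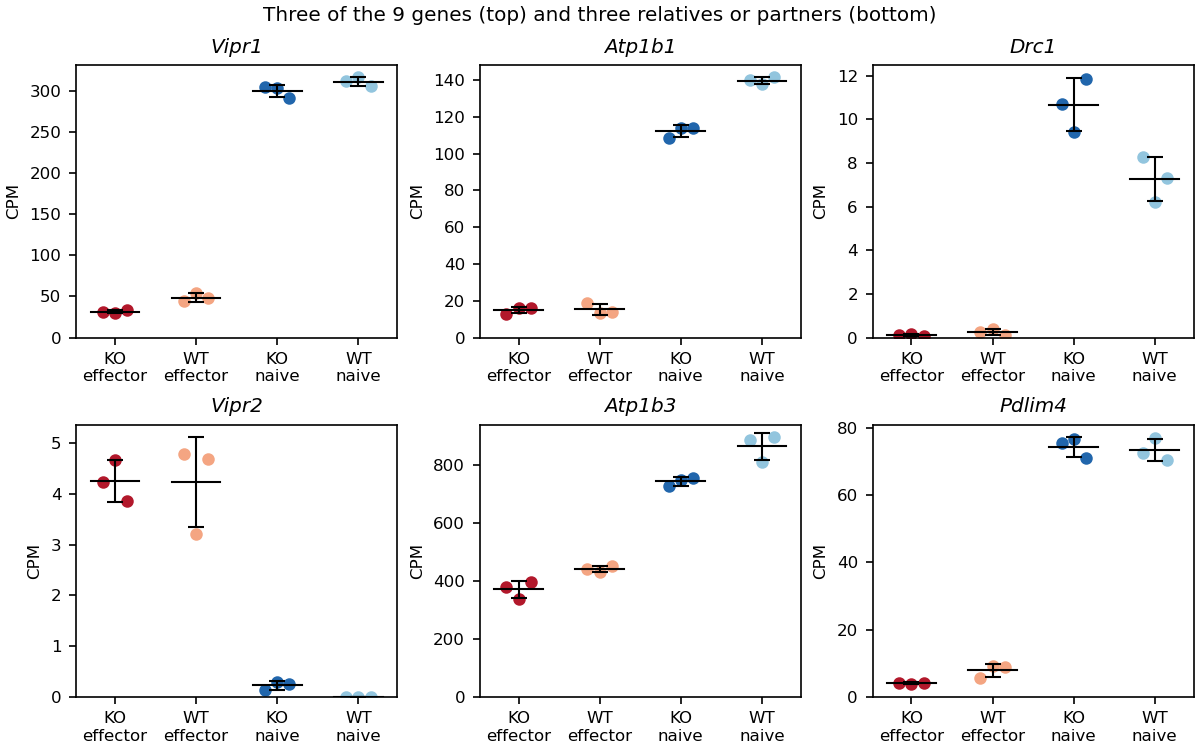
CPM of Vipr1, Atp1b1 and Drc1 (top row) and of Vipr2, Atp1b3 and Pdlim4, a relative or partner of one of the 9 genes each (bottom row), in each library (points), with the group mean and SD as horizontal line and bar (n = 3), KO left of WT within each fraction. For Vipr1 the KO effector libraries lie between 30.1 and 33.3 CPM, below the WT effector libraries at 43.9 to 54.2 CPM; for Atp1b1 and Drc1 the groups separate in naive cells.

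Relatives and partners of the 9 genes were followed in lists, given here as WT effector over WT naive cells on the log2 scale. Of all tested genes 30.2% rose and 25.9% fell in that comparison, with a median of 0.01, and 31.6% rose in the KO one. In the insulin-like growth factor system, 3 of 10 genes were tested, and 2 rose and 1 fell. Igf1r, the growth factor receptor, averaged 95.8 ± 11.2 CPM in WT effector and 35.9 ± 2.61 CPM in WT naive cells (SD, n = 3 each; log2 1.42), and Igf2r, which clears the factor, fell by 0.30. Igfbp7, another binding protein, stood at 0.799, 0.970 and 0.712 CPM in WT effector cells and had no count in WT naive cells, a ratio of at least 13.7-fold when 3 counts over the 3 WT naive libraries are taken as the floor.

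Of 12 genes that assemble antigen receptors, 10 were tested, with 3 higher, 3 lower and a median of -0.11. The polymerases closest to Dntt were higher in WT effector cells, Polm by 0.53 and Poll by 0.26 on the log2 scale, and the end-joining genes Xrcc4 and Prkdc fell by 0.40 and 0.37. In KO effector over KO naive cells Polm rose by 0.49, Xrcc4 and Prkdc fell by 0.46 and 0.45, and Poll did not pass (0.04, edgeR adjusted p 0.617). Dap, the relative of Dapl1, rose by 0.37 in WT effector cells. In KO naive cells Dap averaged 54.6 ± 0.676 CPM against 65.9 ± 2.88 CPM in WT naive cells (SD, n = 3 each), a log2 difference of -0.27 with an edgeR adjusted p of 0.026, lost in 8 of 20 alternative settings.

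All 13 genes of purine handling were tested, with 5 higher, 5 lower and a median of -0.12. The other AMP deaminases moved in opposite directions, Ampd2 at 67.3 ± 0.812 CPM in WT effector and 49.4 ± 0.545 CPM in WT naive cells, and Ampd3 at 17.7 ± 2.38 CPM in WT effector and 34.9 ± 1.69 CPM in WT naive cells (SD, n = 3 each). Adssl1, the muscle-type enzyme that follows AMP deaminase in the purine nucleotide cycle, was higher in WT effector cells by 3.17 on the log2 scale. Impdh1 and Impdh2, which open the route to guanine nucleotides, fell by 0.89 and 0.53.

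Of 18 relatives of Adamts14, 4 were tested, with 2 higher, 1 lower and a median of -0.08. Adamts6 rose by 0.82 and Adamts10 by 0.14, and Adamts17 fell by 2.06. In KO cells Adamts10 did not pass (0.11, edgeR adjusted p 0.0679). In the nexin-dynein complex 4 of 9 genes were tested, with a median of -0.49: Iqcg and Gas8 rose by 3.18 and 0.63, while Drc3 and Iqcd fell by 1.94 and 1.61. Iqcg rested on 37 counts in WT effector and 4 in WT naive cells.

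Of 12 further sodium pump genes reported here 2 were tested, Atp1b3 and the regulator Fxyd5, and both fell, by 0.97 and 0.15 in WT effector cells (median -0.56). Atp1b3, another beta subunit, stood at 185.5 FPKM in KO effector and 219.9 FPKM in WT effector cells, and at 371.7 FPKM in KO naive and 430.2 FPKM in WT naive cells, far above Atp1b1. Atp1b3 was also lower in KO cells of both fractions, with a log2 difference of -0.25 ± 0.053 in effector cells (SE, edgeR adjusted p 0.00784, lost in 3 of 20 settings) and of -0.22 ± 0.052 in naive cells (edgeR adjusted p 0.0369, lost in 8 of 20).

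Of 7 genes of the VIP system, 3 were tested, with 1 higher and 1 lower, and Vip and Adcyap1, which encode the ligands, had no count in any library. Vipr2, the second VIP receptor (VPAC2), stood at 4.23, 4.67 and 3.85 CPM in KO effector, 4.79, 3.21 and 4.69 CPM in WT effector, 0.130, 0.298 and 0.256 CPM in KO naive and 0 CPM in all 3 WT naive libraries. With the same floor (0.0604 CPM), WT effector cells were at least 70.0-fold higher than WT naive cells. KO naive cells had 15 counts of Vipr2 and WT naive cells 0, at least 3.77-fold higher, with an edgeR adjusted p of 0.0358 that was lost in 7 of 18 alternative settings. Ramp1, which binds receptors of this class, fell by 0.28 in WT effector cells.

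Of 12 actinin relatives and partners 11 were tested, with 8 higher, 2 lower and a median of 0.29. Pdlim7 and Zyx, LIM proteins of actin-based adhesion sites, rose by 1.83 and 0.95. Pdlim4 and Pdlim1, PDZ and LIM proteins that bind alpha-actinin, fell by 3.24 and 1.38. Pdlim4 stood at 4.23, 3.71 and 4.02 CPM in KO effector and 5.53, 9.25 and 8.78 CPM in WT effector cells, a log2 difference of -0.97 ± 0.16 (SE, edgeR adjusted p 0.00129, kept in 20 of 20 settings). In naive cells it stood at 75.4, 76.7 and 71.1 CPM in KO and 72.6, 76.9 and 70.5 CPM in WT libraries, and the KO effects differed by -0.99 ± 0.17 (edgeR adjusted p 0.0187, lost in 7 of 19).

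**Figure D5:**
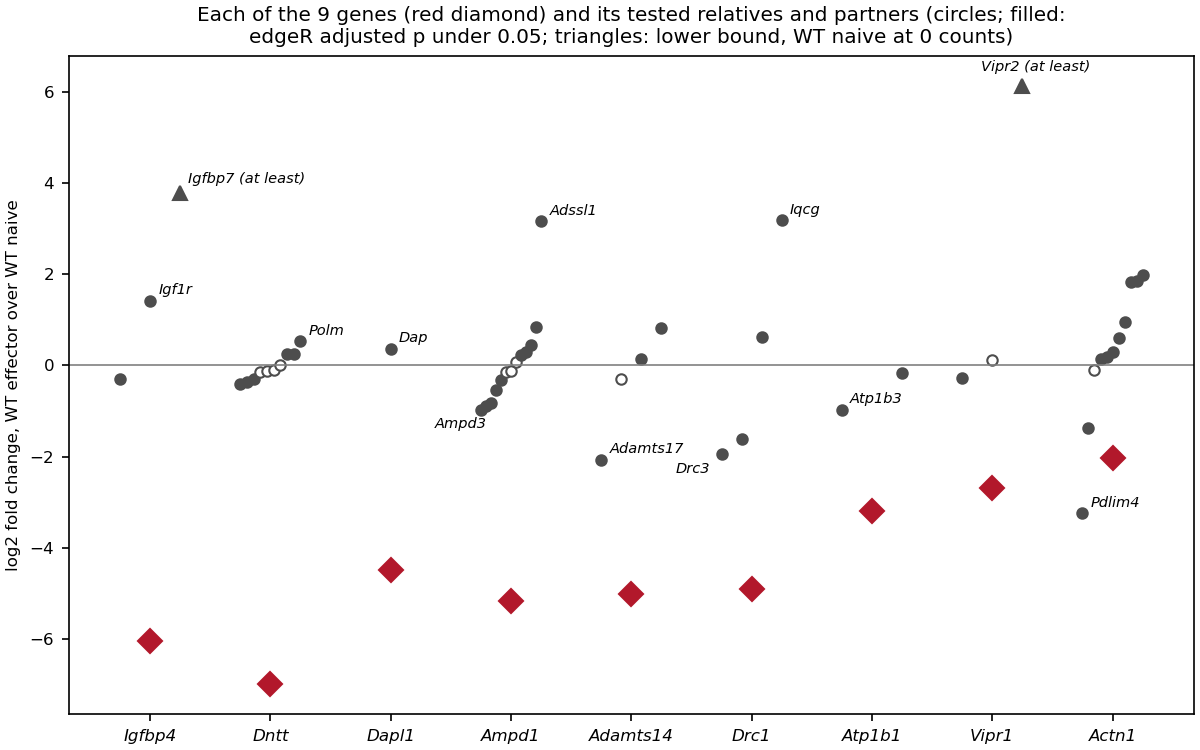
Log2 fold change of WT effector over WT naive cells for each of the 9 genes (red diamonds) and its tested relatives and partners reported here (circles, filled where the edgeR adjusted p was under 0.05; triangles are lower bounds for Igfbp7 and Vipr2, which had no count in WT naive cells). The diamonds lie between -2.03 and -6.98, and each column but that of Atp1b1 holds a relative above 0.

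Genes with 12-library profiles near the mean profile of the 9 were named by the root mean square distance of centred log2 CPM. They were Sorcs2, a sortilin-family receptor, at 0.36, Gm43063 inside Ampd1 at 0.39, Amigo2, a cell adhesion protein, at 0.40, and Acvrl1, a receptor of the TGF-beta superfamily, at 0.41. Igfbp4 and Dntt were each other's nearest gene at 0.52, and Dapl1 and Ampd1 at 0.37. Dapl1 was also nearest to Adamts14 (0.43) and to Drc1 (0.51). The 3 less restricted genes had closer neighbours outside the 9, Myo10, a myosin of filopodia, for Atp1b1 (0.14), Gm15708 for Vipr1 (0.14) and Als2cl for Actn1 (0.10). These distances describe likeness over 12 libraries that share 4 groups, and most of it is the step between fractions. The 9 genes themselves lay 0.24 (Dapl1) to 1.16 (Actn1) from their mean profile. Log2 CPM carried a prior count of 2, which shrinks the changes of low genes. Among these is Gm43063, at 1.82 CPM in KO naive and 2.77 CPM in WT naive cells.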

How the data were processed

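Libraries were prepared from RNA of the sorted cells with a strand-specific mRNA kit, per the labels' protocols. The authors deposited raw counts per gene and, per the file headers, an FPKM table of the same 12 libraries; the FPKM values equalled counts divided by a gene length and a size factor in 11921 genes checked (20 counts or more), so both are 1 measurement. The submitters' processing notes name STAR, Picard and DESeq2 1.30.0, and mm10 and GRCm38, without saying for what. The sources used here do not give the counter or its strand setting. Columns show the group but no replicate number of the labels, so libraries keep the column numbers: 1 to 3 WT naive, 4 to 6 WT effector, 7 to 9 KO naive, 10 to 12 KO effector.

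Counts of 15905 genes that passed edgeR's filter on low counts were fitted in edgeR 4.0.16 (R 4.3.3) with TMM scaling (factors 0.968 to 1.04), a robust quasi-likelihood fit and 1 coefficient for each of the 4 groups, with Benjamini-Hochberg adjustment over all tested genes. The biological coefficient of variation was 5.21%. Alternatives were DESeq2 1.42.0 and its size factors, limma-voom (limma 3.58.1), no filter, a mean of at least 5 CPM, limma on log2(FPKM + 1) and log2(FPKM + 0.1), only the groups compared, and each library left out. On the log2(FPKM + pseudocount) scale changes of low genes are understated. The fit was tested on simulated data. The members and lists were chosen with earlier results of these data known. Named were the 9 members, Rinl, Cd44 and Cd4, up to 4 called relatives per list by p, any relative called in KO against WT, Ampd2 (added after its values were seen), and the nearest profiles; 3 genes that this rule or the lists held are not reported here. Sequences come from RefSeq (GRCm38.p6).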

Additional observations from a re-analysis of the deposited data

Results flagged for a closer look

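The difference between KO and WT cells was unequal in effector and naive cells for 5 of the genes examined, by the test of the difference itself (log2, effector minus naive). The genes examined were the 9 members and 178 genes of 18 lists, not all of which passed the filter on low counts. Of all 15905 tested genes, 23 (0.145%) passed this test. For Vipr1 it was -0.572 (edgeR adjusted p 0.00157): KO effector cells held 31.5 ± 1.64 CPM against 48.7 ± 5.20 CPM in WT effector cells, while KO naive cells held 299.6 ± 7.42 CPM against 311 ± 5.60 CPM in WT naive cells (SD, n = 3 each). For Pdlim4, an alpha-actinin partner, it was -0.992 (edgeR adjusted p 0.0187), with 3.99 ± 0.265 CPM in KO effector and 7.85 ± 2.03 CPM in WT effector cells, and 74.4 ± 2.93 CPM in KO naive and 73.3 ± 3.24 CPM in WT naive cells.

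The other 3 are effector and memory genes, for which KO naive cells were higher. S100a6 differed by -2.146 (edgeR adjusted p 0.0187), with 117.4 ± 7.35 CPM in KO effector and 135.0 ± 13.1 CPM in WT effector cells, and 1.02 ± 0.0926 CPM in KO naive and 0.270 ± 0.0942 CPM in WT naive cells. Ccl5 differed by -2.252 (edgeR adjusted p 0.0187), with 206.3 ± 13.7 CPM in KO effector and 268.0 ± 23.2 CPM in WT effector cells, and 1.52 ± 0.402 CPM in KO naive and 0.415 ± 0.178 CPM in WT naive cells. Il2rb differed by -0.435 (edgeR adjusted p 0.0187), with 1076 ± 72.4 CPM in KO effector and 1185 ± 40.9 CPM in WT effector cells, and 107.3 ± 4.56 CPM in KO naive and 87.7 ± 7.10 CPM in WT naive cells. The WT naive levels of S100a6 and Ccl5 rest on few counts. In the WT naive libraries, 3 counts correspond to 0.158 to 0.249 CPM. How S100a6, Ccl5 and Il2rb held under other settings is not given here.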

How the results depend on the processing

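No paired analysis was possible because the columns carry no replicate number of the labels. Counts of genes past the threshold moved with the settings, and the cause was not tested. KO against WT in naive cells gave 187 genes, and 501 with no filter, 528 with only the groups compared, 40 and 57 with limma on log2(FPKM + 1) and log2(FPKM + 0.1), and 66 to 255 with a library left out (72 without library 2, 124 without 7, 66 without 8, 84 without 9). Of the 9 members, 2 passed there, but 1 with DESeq2, 1 at a mean of at least 5 CPM (Drc1 was not tested), 0 in both FPKM fits, and 0 to 2 with a library left out. In effector cells 503 genes passed, and 959, 230, 262 and 139 under the same 4 settings, with 194 to 662 with a library left out (270 without 5, 267 without 6, 194 without 11). The difference of the KO effects gave 23 genes, and 61 with DESeq2, 277 with no filter, 13 and 8 in the FPKM fits, and 10 to 85 with a library left out, with 11, 14, 12, 10 and 15 without library 2, 6, 7, 8 and 9 and 85, 47 and 39 without library 4, 10 and 12. It has no value from only the groups compared, and Dntt and Drc1 were not tested in the fit of effector cells alone.

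Vipr1 in effector cells passed in 20 of 20 alternatives. Signs turned for 9 values, none of which passed. Ampd1 in effector cells was -0.02, and 0.027 with limma-voom and 0.0153 and 0.0674 in the FPKM fits. With a library left out, the log2 differences ran from -0.0555 to 0.045 for Igfbp4 in naive cells and from -0.0231 to 0.0293 for Actn1 in naive cells. In effector cells they ran from -0.136 to 0.0554 for Actn1, -0.16 to 0.92 for Dntt, -0.20 to 0.40 for Ampd1 and -0.12 to 0.14 for Atp1b1. The differences of the KO effects ran from -0.43 to 0.00293 for Dapl1, -0.13 to 0.47 for Ampd1 and -0.127 to 0.0654 for Actn1. That of Atp1b1 passed in 1 setting, without library 4 (0.45, edgeR adjusted p 0.0499). The effector shares of the naive level moved by less than 1 SD in all 126 alternatives. Leaving a library out of so small a group cannot move the group mean by 1 SD of its libraries, and FPKM are rescaled counts. That outcome was therefore nearly fixed in advance, and no conclusion on the stability of the shares is drawn from it. Depth limits the effector values of Dntt and Drc1, which rest on 4 to 11 counts a group.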
